A study of Mus musculus with 45 samples.

Results

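Oligodendrocyte progenitors, the dividing precursors of myelinating cells, carry and secrete a set of surface and matrix molecules, and 9 of their genes are described here: Cspg4, Bcan, Ncan, Tnr, Ptprz1, Gpr17, Pcdh15, Cspg5 and St6gal2. They were chosen by name, with earlier results of these data known. Where several probe sets were mapped to a symbol the one brightest on average over the 45 arrays stands for the gene. A probe set was matched for 8 of the 9, out of 17097 genes with a probe set, and all 8 were among the 11809 genes kept for testing. Cspg4, which encodes the NG2 proteoglycan, was not matched and its level was not analysed here.

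RNA of mouse brain tumours was measured on 45 Affymetrix 3′ IVT arrays. All animals were CD-1 nude, an athymic strain, and all tumours were p53 null and modelled glioblastoma. EGFRvIII, a form of the epidermal growth factor receptor that lacks part of its extracellular domain and signals without ligand, drove the tumours on 8 of the arrays. Tumours on the other arrays carried Pdgfra, the gene of the platelet-derived growth factor receptor alpha: 5 arrays had C450 ins, 5 had D842V, 5 had E10 del, 9 had E10 del.v2, 3 had E7 del, 9 had V544ins and 1 had the wild-type receptor. Per the series description the receptors were expressed from retroviral constructs and were studied in primary astrocytes of mice without p53, so every group shares that background and none is a tumour free of an introduced receptor. The labels give no age and do not say whether arrays came from separate animals, and the p-values here reflect only how much the samples varied. Numbers in the sample titles lay between 1 and 30 for 21 arrays and between 41 and 64 for 24, here called the lower and the upper range, and the labels do not call them batches. All EGFRvIII, E7 del and wild-type arrays were in the upper range, C450 ins, D842V and E10 del in the lower, and V544ins and E10 del.v2 had 3 arrays in the lower and 6 in the upper.

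Brain matrix is built on hyaluronan, to which the lecticans brevican and neurocan bind by one end while tenascin-R cross-links them by the other. These proteoglycans carry chondroitin sulfate chains, which are known to hold back growing axons and to bind growth factors. Progenitors meet this matrix through receptors such as PTPRZ1, whose ligands include pleiotrophin, and gliomas of the kind modelled here often resemble progenitors in the genes they express. In bulk tissue fewer cells of a type and less RNA per cell cannot be told apart.

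The promoters of 4 genes are printed because their levels are followed array by array below and their upstream sequences differ in kind. Each is the 250 bases before a start site in RefSeq's GRCm38.p6 annotation, read 5′ to 3′ on the gene's strand, and windows of 7 of the 9 genes were matched. The Bcan window lies on the minus strand at chr3:88000357-88000606, that of Ptprz1 on the plus strand at chr6:22875252-22875501, that of Pcdh15 on the plus strand at chr10:73821617-73821866 and that of St6gal2 on the plus strand at chr17:55445132-55445381. The start sites used are not the outermost ones. The Pcdh15 window lies far inside the annotated gene (chr10:73096277-74649831). Those of Bcan (chr3:87987531-88002175) and St6gal2 (chr17:55445118-55514581) also lie inside theirs, and that of Ptprz1 in part. Capitals mark matches on either strand to 5 short motifs, and no matches overlap in these windows. These were the E-box CAGCTG bound by factors such as OLIG2, the SOX motifs ACAAAG and, in a second form, AACAAT of factors such as SOX10, the GC box spelled GGGCGG and the TATA box spelled TATAAA.
Bcan: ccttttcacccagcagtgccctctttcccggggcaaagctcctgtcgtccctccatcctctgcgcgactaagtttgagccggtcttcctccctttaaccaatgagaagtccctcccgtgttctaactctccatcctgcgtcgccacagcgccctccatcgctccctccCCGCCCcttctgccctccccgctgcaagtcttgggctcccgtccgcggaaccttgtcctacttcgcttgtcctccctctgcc
Ptprz1: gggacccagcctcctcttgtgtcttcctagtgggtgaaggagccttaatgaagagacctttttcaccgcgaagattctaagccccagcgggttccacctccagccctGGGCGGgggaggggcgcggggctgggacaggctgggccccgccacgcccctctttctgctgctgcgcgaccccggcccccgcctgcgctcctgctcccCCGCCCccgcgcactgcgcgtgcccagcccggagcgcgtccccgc
Pcdh15: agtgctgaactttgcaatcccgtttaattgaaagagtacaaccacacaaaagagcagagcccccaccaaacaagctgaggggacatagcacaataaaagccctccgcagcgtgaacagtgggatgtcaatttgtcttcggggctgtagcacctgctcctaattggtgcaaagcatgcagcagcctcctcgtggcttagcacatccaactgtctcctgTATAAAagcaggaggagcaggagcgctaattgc
St6gal2: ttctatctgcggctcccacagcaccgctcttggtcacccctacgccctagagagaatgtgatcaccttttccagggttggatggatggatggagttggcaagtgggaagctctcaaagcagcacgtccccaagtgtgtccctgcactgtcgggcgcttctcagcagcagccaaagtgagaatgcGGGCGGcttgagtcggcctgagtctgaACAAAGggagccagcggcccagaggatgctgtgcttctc
The Ptprz1 window held 22 CG dinucleotides and was 71.6% G or C, with a GC box 143 and another 45 bases before the start site. The Bcan window held 16 CG dinucleotides, was 62% G or C and had 1 GC box, 82 bases before the start. Over the 32851 windows of the table the median was 6 CG dinucleotides and 52.4% G or C, and a GC box was found in 32.7%.

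The Pcdh15 window, before an internal start site, had no GC box but a TATA box 33 bases before that site. This match was found in 12.4% of all windows, and the window had 6 CG dinucleotides and 50.4% G or C. The St6gal2 window had a GC box 66 and an ACAAAG match 39 bases before the start site used, the latter found in 16.5% of all windows, with 10 CG dinucleotides. Neither the E-box, found in 13% of all windows, nor AACAAT, found in 9.42%, was in these 4 windows, while the Ncan window, not printed, held the E-box 58 bases before its start. A match is a description of the letters and not a site of binding.

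The 8 genes were above the table median on nearly all arrays, and for each of them the SD was larger in EGFRvIII than in any Pdgfra group. Values are log2 signals, so a difference of 1 is a factor of 2, and signals of different genes come from different probes and are not compared with each other. Errors of group levels are SD. The table median over all probe sets was 4.79, and the number of arrays above it was 45 of 45 for Ncan, Tnr, Ptprz1, Gpr17 and Cspg5, 44 for Bcan and Pcdh15, and 41 for St6gal2.

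**Figure D1:**
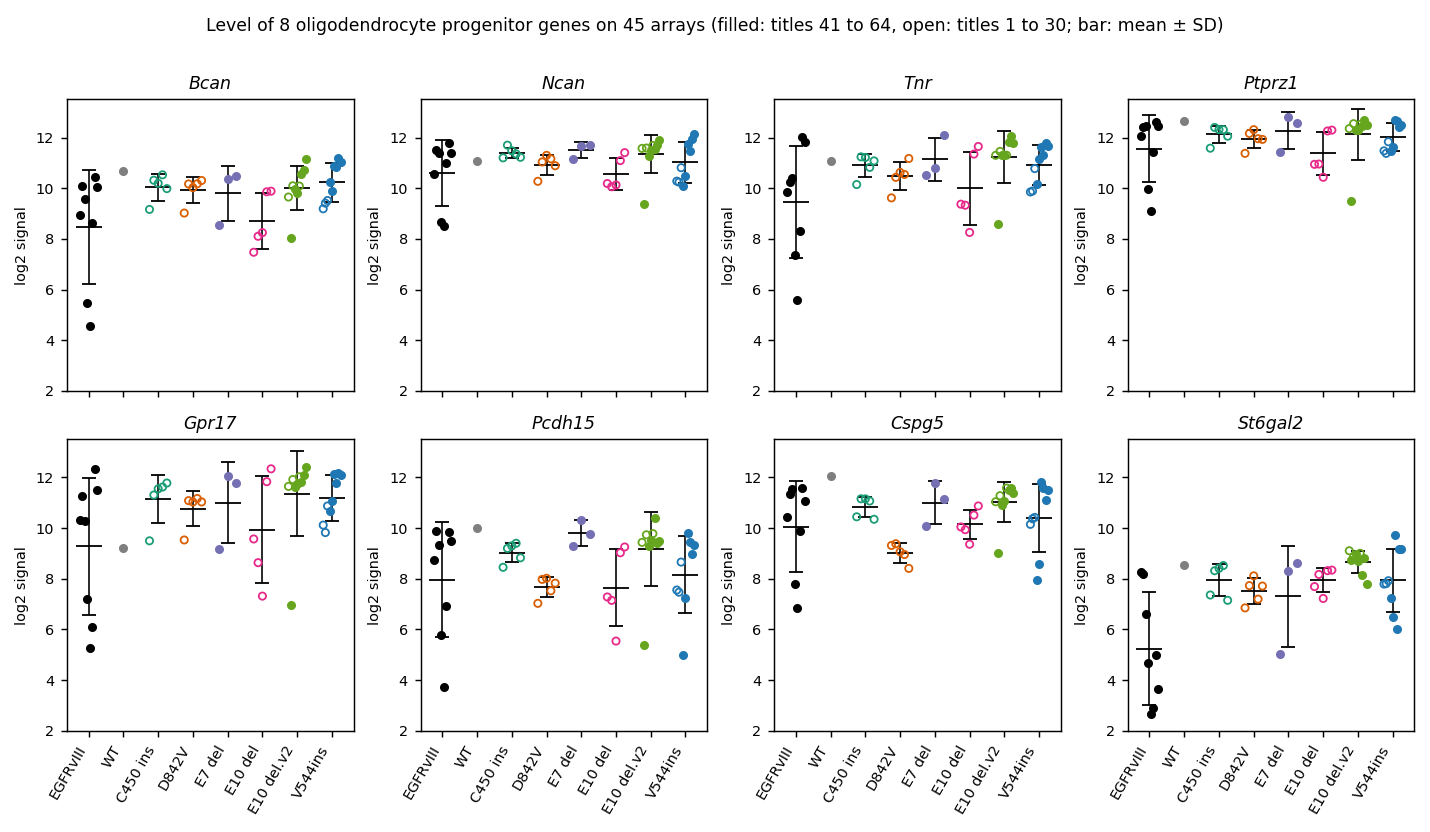
Log2 signal of the 8 measured genes (y axis, 1 panel a gene) in the 8 genotypes (x axis), with 1 point an array, filled for titles 41 to 64 and open for titles 1 to 30, and bars for the mean and SD of each group with more than 1 array. EGFRvIII arrays spread from 4.55 to 10.43 for Bcan and from 2.67 to 8.29 for St6gal2, while the 5 D842V arrays of Cspg5 lie together between 8.41 and 9.38.

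Bcan encodes brevican, the lectican most typical of the adult brain and of glioma. In EGFRvIII replicates 1 to 8 its log2 signals were 8.95, 10.07, 9.59, 5.45, 4.55, 8.62, 10.43 and 10.06. Replicates 4 and 5 were far below the other 6, which lay within the range of the Pdgfra mutant arrays. In C450 ins the 5 arrays were at 9.16, 10.31, 10.19, 10.53 and 9.98 and in D842V at 9.02, 10.17, 10.02, 10.17 and 10.30. In E10 del they were at 7.47, 8.10, 8.25, 9.86 and 9.88, so the first 3 lay below all C450 ins and D842V arrays. The 3 E7 del arrays were at 8.54, 10.36 and 10.49, and the wild-type array was at 10.70. E10 del.v2 ran from 8.04 over a median of 10.08 to 11.14 and V544ins from 9.19 over 10.24 to 11.20, which overlapped with each other throughout. Group means went from 10.24 ± 0.77 (SD, n = 9) in V544ins to 8.71 ± 1.10 (SD, n = 5) in E10 del and 8.47 ± 2.23 (SD, n = 8) in EGFRvIII, and no step between neighbours in that order exceeded the larger of their SDs.

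Ncan encodes neurocan, the lectican of the developing brain. Its EGFRvIII arrays were at 10.58, 11.49, 11.38, 8.65, 8.52, 10.99, 11.77 and 11.39, again with replicates 4 and 5 lowest and the rest within the range of the Pdgfra tumours. C450 ins was tightly grouped, from 11.20 to 11.70, and D842V ran from 10.27 to 11.30. E10 del held 10.18, 10.06 and 10.13 beside 11.09 and 11.40, a split like that of Bcan. E7 del had the highest mean, 11.52 ± 0.31 (SD, n = 3), and E10 del the lowest, 10.57 ± 0.63 (SD, n = 5), next to EGFRvIII at 10.60 ± 1.29 (SD, n = 8). The wild-type array was at 11.09. E10 del.v2 had 8 arrays from 11.29 to 11.90 and 1 at 9.39, and V544ins ran from 10.09 over a median of 10.81 to 12.15. A second Ncan probe set followed the first with r = 0.96 over the 45 arrays.

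Tnr encodes tenascin-R, the cross-linker of lecticans made by oligodendrocyte lineage cells and some neurons. Its EGFRvIII arrays were at 9.85, 10.23, 10.42, 7.38, 5.61, 8.31, 12.02 and 11.80. Here replicate 6 joined replicates 4 and 5 at the low end, and replicates 7 and 8 were close to the highest Pdgfra arrays. C450 ins ran from 10.14 to 11.24, D842V from 9.62 to 11.17 and E7 del from 10.54 to 12.10. E10 del was split between 9.37, 9.33 and 8.25 and 11.35 and 11.65. E10 del.v2 had the highest mean, 11.21 ± 1.03 (SD, n = 9), and EGFRvIII the lowest, 9.45 ± 2.21 (SD, n = 8). The wild-type array was at 11.06, inside the range of most groups.

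Cspg5 encodes neuroglycan C, a membrane-bound chondroitin sulfate proteoglycan. In EGFRvIII its signals were 10.44, 11.35, 11.54, 7.81, 6.86, 9.88, 11.57 and 11.06. Unlike the genes above, Cspg5 was low in a Pdgfra group as a whole: the D842V arrays were at 9.32, 9.38, 9.07, 8.96 and 8.41, below every C450 ins array (10.35 to 11.16). In E10 del the signals were 10.05, 9.94, 9.36, 10.51 and 10.87, and only the third of these reached into the D842V range. E10 del.v2 ran from 9.04 over a median of 11.28 to 11.59, and E7 del held 10.09, 11.79 and 11.14. V544ins had 2 low arrays, replicate 4 at 7.95 and replicate 5 at 8.58, beside 7 arrays from 10.15 to 11.81. The wild-type array, at 12.07, was the highest of the 45. Group means went from 11.04 ± 0.79 (SD, n = 9) in E10 del.v2 to 9.03 ± 0.39 (SD, n = 5) in D842V.

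Ptprz1 encodes a receptor-type tyrosine phosphatase whose extracellular part is itself a chondroitin sulfate proteoglycan. Its EGFRvIII arrays were at 12.05, 12.40, 12.47, 9.97, 9.11, 11.44, 12.59 and 12.46, so that 5 of them lay close together and replicates 4, 5 and 6 below. Means of the Pdgfra mutants ran from 12.27 ± 0.74 (SD, n = 3) in E7 del to 11.37 ± 0.85 (SD, n = 5) in E10 del, where replicates 1, 2 and 3 were at 10.94, 10.95 and 10.43 and replicates 4 and 5 at 12.26 and 12.29. C450 ins ran from 11.58 to 12.40, D842V from 11.37 to 12.31 and V544ins from 11.37 over a median of 11.83 to 12.70. The wild-type array was at 12.63. In E10 del.v2 1 array was at 9.49 and the other 8 lay between 12.29 and 12.70. A second probe set followed it with r = 0.98.

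Gpr17 encodes a G protein-coupled receptor of progenitors that are about to differentiate, in which it restrains maturation. Its EGFRvIII arrays were at 10.33, 11.28, 10.29, 7.20, 5.27, 6.08, 12.33 and 11.52, so replicates 4, 5 and 6 stood well apart from the other 5. E10 del was as divided, with 9.57, 8.64 and 7.32 against 11.83 and 12.34. C450 ins and D842V each had 4 arrays close together, from 11.31 to 11.78 and from 11.03 to 11.17, and 1 below, at 9.50 and 9.53. E7 del held 9.16, 12.07 and 11.76, E10 del.v2 ran from 6.98 over a median of 11.82 to 12.41, and V544ins from 9.82 over 11.07 to 12.16. The wild-type array was at 9.20, in the low part of the range. Means went from 11.36 ± 1.66 (SD, n = 9) in E10 del.v2 to 9.94 ± 2.13 (SD, n = 5) in E10 del and 9.29 ± 2.70 (SD, n = 8) in EGFRvIII.

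Pcdh15 encodes a protocadherin best known from the tip links of inner ear hair cells and is a standard marker of progenitors. Its EGFRvIII arrays were at 8.73, 9.89, 9.32, 5.79, 3.73, 6.94, 9.85 and 9.48. As with Cspg5, D842V was low throughout, at 7.03, 7.98, 8.02, 7.53 and 7.83, below all C450 ins arrays (8.45 to 9.40). E10 del held 7.28, 7.15, 5.54, 9.03 and 9.26, and E7 del, with the highest mean, 9.29, 10.33 and 9.78. In V544ins replicate 4 was at 5.004 and replicate 5 at 7.23, below the other 7 arrays, which reached from 7.47 to 9.82. E10 del.v2 ran from 5.41 over a median of 9.48 to 10.41, and the wild-type array was at 9.996. Both other Pcdh15 probe sets followed the one used, with r = 0.86 and r = 0.96. In both D842V had the lowest group mean, at 4.37 and 4.58, under the table median of 4.79. In the one used E10 del was lowest, at 7.65 against 7.68 in D842V.

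St6gal2 encodes a sialyltransferase that caps glycan chains of glycoproteins with sialic acid in the alpha-2,6 linkage. In EGFRvIII its signals were 8.29, 8.20, 6.62, 4.66, 2.67, 2.91, 4.99 and 3.66, and those of replicates 4, 5, 6 and 8 were under the table median. It was therefore high in replicates 1 and 2 and low in replicates 7 and 8, in which Tnr and Gpr17 were highest. C450 ins ran from 7.15 to 8.52, D842V from 6.85 to 8.12 and E10 del from 7.22 to 8.34. E10 del.v2 had the highest mean, 8.68 ± 0.43 (SD, n = 9), with a range of 7.79 to 9.11, and its step of 0.73 to C450 ins at 7.95 ± 0.65 (SD, n = 5) was the only one between neighbours, over the 8 genes, that exceeded the larger SD. E7 del held 5.01, 8.31 and 8.61, V544ins ran from 6.03 over a median of 7.81 to 9.74, and the wild-type array was at 8.56. EGFRvIII was lowest, at 5.25 ± 2.23 (SD, n = 8).

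**Figure D2:**
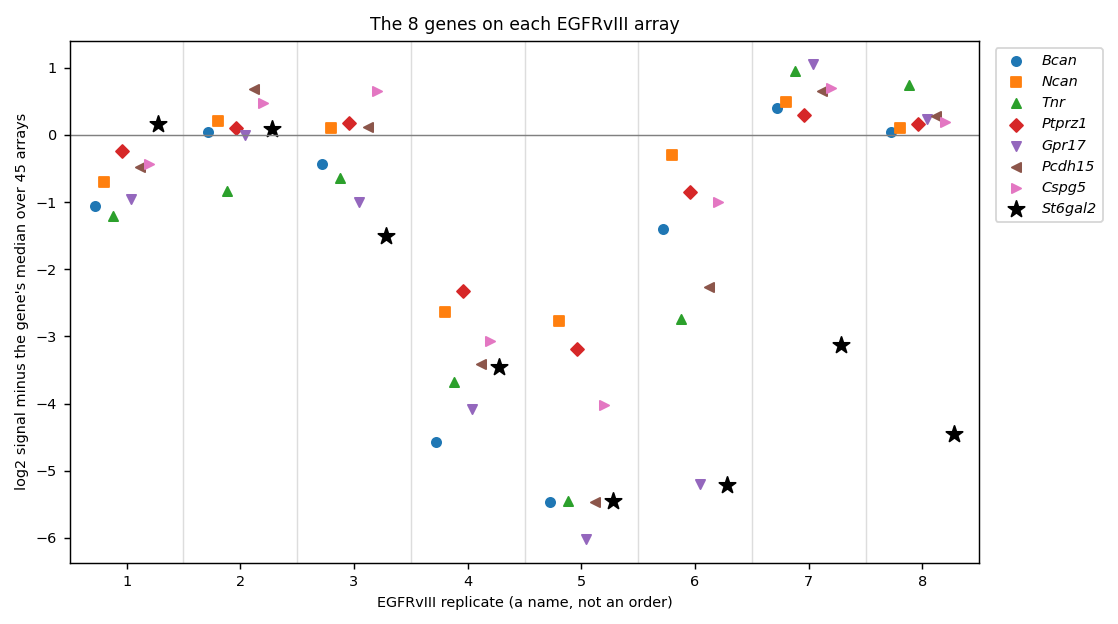
Log2 signal of each gene minus its own median over the 45 arrays (y axis) on the 8 EGFRvIII arrays (x axis, replicate names without an order), with 1 symbol a gene. In replicates 4, 5 and 6 every gene lies below its median; in replicates 7 and 8 only St6gal2 does, at signals of 4.99 and 3.66.

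Replicates 4, 5 and 6 also differed from the rest of the EGFRvIII group in markers of other cell types. The mean of 14 microglia and macrophage markers was 9.56, 9.50 and 8.45 in them and 7.11 to 8.05 in the other 5. For 10 fibroblast and mesenchymal markers it was 8.66, 8.46 and 8.07 against 6.03 to 7.62. Neuron markers (15 genes) gave 8.57, 6.35 and 7.39, within the 5.12 to 10.50 of the others, and markers of myelinating oligodendrocytes (14 genes) 8.33, 6.22 and 7.18 against 7.98 to 9.01. The mean of 10 endothelium markers was 7.07 and 6.72 in replicates 4 and 5 and 5.12 to 6.37 in the other 6. That of 9 pericyte and mural cell markers was 6.90 and 6.66 against 5.66 to 6.52. These means took in every marker with a probe set. The filter on low values kept 9 of the 10 fibroblast and mesenchymal and 9 of the 10 endothelium markers. It kept 7 of the 9 pericyte and mural cell markers, and all markers of the other lists named here. The part of these cell types in the low signals of the 8 genes was not tested.

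Low arrays in the Pdgfra groups went with other markers. Replicates 1 to 3 of E10 del and replicate 2 of E10 del.v2, low in the 7 genes other than St6gal2, had neuron marker means of 10.999, 10.89, 10.31 and 11.43, against 8.72 and 8.68 in E10 del replicates 4 and 5. St6gal2 stood at 7.69, 8.17, 7.22 and 8.72 in those 4 arrays, inside its usual range. V544ins replicates 4 and 5, low in Cspg5 and Pcdh15, had neuron means of 5.32 and 4.52 and the highest myelinating oligodendrocyte means of the group, 10.18 and 10.09. They also had its lowest astrocyte means, 6.47 and 7.39 against 8.55 to 9.34, and its highest fibroblast and mesenchymal means, 7.35 and 7.93 against 5.36 to 7.05. Across D842V the myelinating oligodendrocyte mean was 9.38 ± 0.26 (SD, n = 5), the highest of the groups, and 8.71 ± 0.34 (SD, n = 5) in C450 ins. The part of these cell types in the levels was not tested.

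A contrast of the mutants' mean with EGFRvIII set tumours of 1 receptor against those of the other. St6gal2 rose about 6.25-fold in the mutants, a size that is approximate because 4 of the 8 EGFRvIII arrays lay under the table median, by a log2 difference of 2.64 ± 0.49 (standard error; limma, Benjamini-Hochberg adjusted p = 0.00125), with all 36 mutant arrays above the EGFRvIII median of 4.82 and 17 above the highest EGFRvIII array. It was the 1 gene of the 8 that passed the threshold of 0.05, and none passed in the lower direction. Of all 11809 genes 8.90% passed, 3.55% higher and 5.35% lower. The median log2 difference over the 8 genes was 0.97, with all 8 positive, against -0.02 over all genes. The higher level of St6gal2 in the mutants was known from earlier results of these data. All 8 genes were chosen with such results known, so their median and shared sign are descriptions and not a test.

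The other 7 differences did not pass. Gpr17 differed by 1.62 ± 0.66 (adjusted p = 0.106), Bcan by 1.32 ± 0.47 (adjusted p = 0.0674) and Tnr by 1.32 ± 0.49 (adjusted p = 0.0764). Pcdh15 differed by 0.62 ± 0.57, Ncan by 0.54 ± 0.31, Ptprz1 by 0.42 ± 0.33 and Cspg5 by 0.34 ± 0.43, with adjusted p from 0.257 to 0.616. For these 7 genes 18 to 29 of the 36 mutant arrays lay above the EGFRvIII median and 2 to 9 above the highest EGFRvIII array, so the groups overlapped broadly. With all mutant arrays as 1 group Bcan passed (1.40 ± 0.47, adjusted p = 0.0475), in a fit that called 1201 of the 11809 genes, and Tnr was at 0.0555. Between 1 and 2 EGFRvIII arrays a gene lay below every mutant array, against 5 for St6gal2.

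Those 7 differences shrank or turned without EGFRvIII replicates 4, 5 and 6, which were picked from earlier results. Over both title ranges all 7 were then negative, from -0.03 for Bcan to -0.87 for Pcdh15, with adjusted p from 0.548 to 0.984. Within the upper range, which holds all EGFRvIII arrays, 4 were positive and 3 negative: Bcan at 0.35, Tnr at 0.33, Gpr17 at 0.11 and Ncan at 0.03, and Ptprz1 at -0.24, Cspg5 at -0.41 and Pcdh15 at -0.44, with adjusted p from 0.927 to 0.996. St6gal2 without the 3 arrays differed by 1.54 ± 0.52 (adjusted p = 0.228) where 0.457% of all genes passed, and within the upper range also without them by 1.59 ± 0.75 (adjusted p = 0.626), where 0.0169% passed. With a block for title range it differed by 2.54 ± 0.63 (adjusted p = 0.0235) and within the upper range alone by 2.69 ± 0.73 (adjusted p = 0.082), where 2.63% and 0.677% of all genes passed. Leaving out any 1 array gave differences from 2.27 to 3.08, all with adjusted p under the threshold. Bcan was called in 5 of those 44 fits (1.39 to 1.60, without EGFRvIII replicate 1, 2, 7 or 8 or E7 del replicate 1). In that order these fits called 2239, 1565, 1318, 1068 and 1109 of the 11809 genes, against 1051 over all arrays. Tnr was called in 2 of the 44 (without EGFRvIII replicate 7 or 8) and Gpr17 in 1 (2.05, without EGFRvIII replicate 7). Cspg5 turned to -0.11 without EGFRvIII replicate 5.

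**Figure D3:**
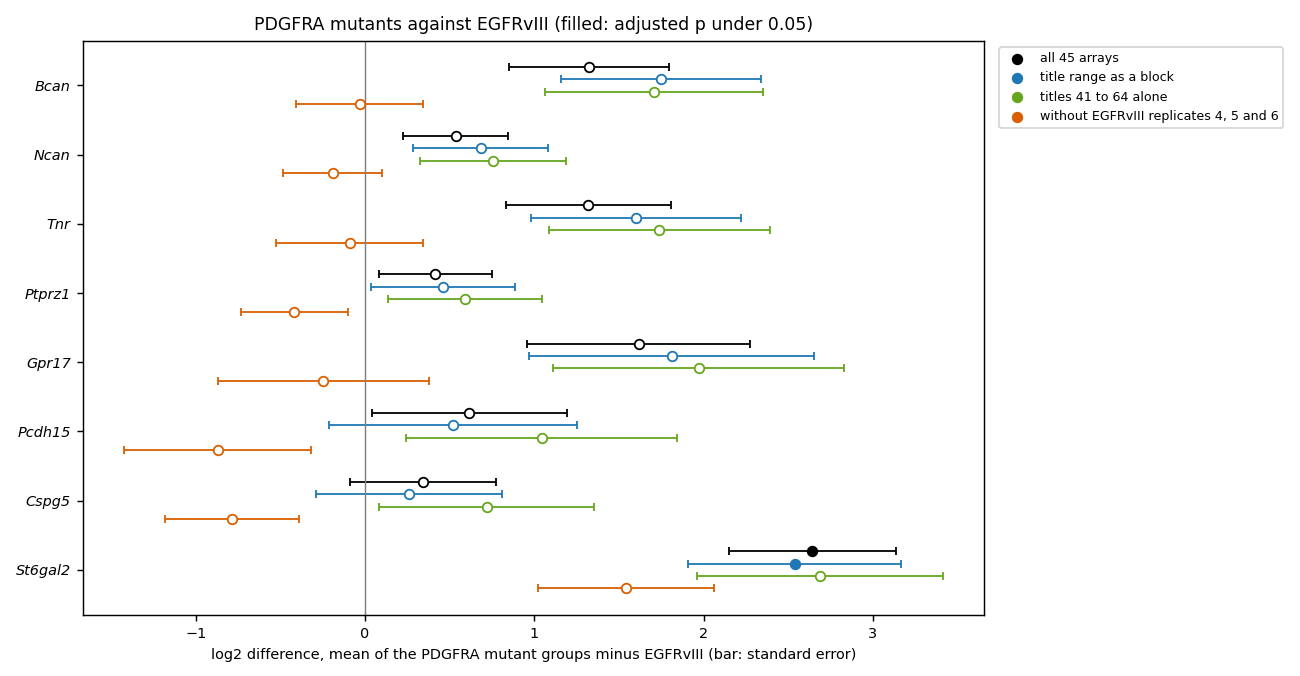
Log2 difference of the mean of the 6 Pdgfra mutant groups minus EGFRvIII (x axis, points with standard errors) for the 8 genes (y axis), over all arrays, with a block for title range, in the upper range (titles 41 to 64), and without EGFRvIII replicates 4, 5 and 6; filled points have an adjusted p under 0.05. St6gal2 stays between 1.54 and 2.69, while the other 7 genes fall to between -0.87 and -0.03 without the 3 arrays over both title ranges.

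Among the 6 mutants none of the 8 genes passed limma's moderated F test, where 0.576% of all genes (68) passed. Cspg5 had the smallest adjusted p, 0.26, and Pcdh15 the next, 0.393. At an unadjusted p under 0.05 by limma the count was 1, namely Cspg5, where 2148 of the 11809 genes passed. Within the lower title range, which holds 5 of the mutants, Cspg5 differed (adjusted p = 0.00563, where 1.89% of all genes passed) and the other 7 did not, with Ncan at 0.0766 and Pcdh15 at 0.113. The Cspg5 signals of D842V were low in that lower range, at 8.41 to 9.38, against 9.36 to 10.87 in E10 del, 10.15 to 10.42 in V544ins, 10.35 to 11.16 in C450 ins and 11.04 to 11.58 in E10 del.v2. Without V544ins replicates 4 and 5, a setting chosen after seeing the data, the adjusted p of Cspg5 over both ranges was 0.136. Within the upper range none of the 8 passed and 0% of all genes did. With array weights 7 of the 8 passed and St6gal2 did not (adjusted p = 0.0508), in a fit that called 10855 of the 11809 genes.

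The title ranges could be compared only in V544ins and E10 del.v2, over 18 arrays, where 5.47% of all genes passed and none of the 8 did. Bcan was 0.70 ± 0.34 higher in the upper range (adjusted p = 0.2), with V544ins at 9.19 to 9.51 in the lower and 9.89 to 11.20 in the upper, which did not overlap, and E10 del.v2 at 9.65 to 10.09 and 8.04 to 11.14, which did. How many of all genes separate the V544ins arrays in this way was not counted. Their neuron marker means were also apart, at 9.98 to 10.55 in the lower range and 4.52 to 7.95 in the upper. Those of E10 del.v2 overlapped, at 8.97 to 10.22 and 7.65 to 11.43. In V544ins title range and neuronal RNA cannot be told apart. Range differences of the other 7 genes ran from -0.17 for St6gal2 to 0.46 for Tnr. The test of whether the range difference itself differed between the 2 genotypes, passed by 0.0339% of all genes, gave adjusted p from 0.238 to 0.778 for the 8 genes. At an unadjusted p under 0.05 by limma none of the 8 passed either of these tests, where 3162 and 3442 of the 11809 genes did. Without E10 del.v2 replicate 2 the range differences of Bcan (0.90, adjusted p = 0.00697), Tnr (0.71, adjusted p = 0.0252) and Gpr17 (0.73, adjusted p = 0.0284) passed, in a fit in which 3617 of the 11809 genes did.

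Across all arrays 7 of the genes rose and fell together, and St6gal2 followed them least. Pearson correlations of log2 signals are given over 45 arrays, and over 38 after leaving out 7 low arrays: replicates 4 to 6 of EGFRvIII, 1 to 3 of E10 del and 2 of E10 del.v2. They are descriptions, since all points share arrays, normalisation, groups and tumour content. Ncan and Ptprz1 had r = 0.93 (0.83 over 38 arrays), Tnr and Gpr17 also 0.93 (0.77), Bcan and Tnr 0.91 (0.69) and Pcdh15 and Cspg5 0.90 (0.89). Gpr17 and Cspg5 had 0.63 and 0.38. Bcan and Pcdh15 had 0.74 and 0.33, the lowest pair of the 7 genes over 38 arrays and close to the 0.31 of Bcan and St6gal2. St6gal2 had r of 0.44 to 0.56 with the other 7 and 0.13 to 0.31 without the 7 arrays.

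**Figure D4:**
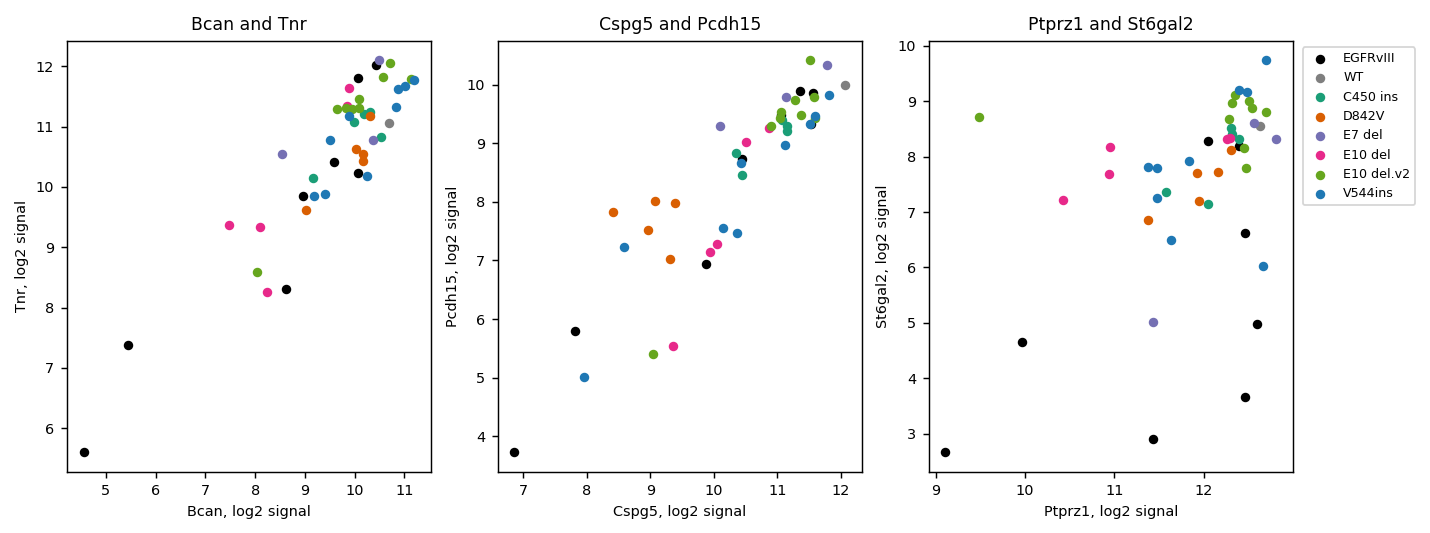
Log2 signals of 3 pairs of genes over the 45 arrays, coloured by genotype, with 1 point an array. Bcan and Tnr and Cspg5 and Pcdh15 lie along a line (r = 0.91 and 0.90), while Ptprz1 and St6gal2 (r = 0.45) do not, with EGFRvIII arrays low in St6gal2 at both low and high Ptprz1.

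The genes most alike in pattern were the 3 with the highest r for each member, with predicted and clone genes passed over. They were in part markers of the same lineage, and each r over 45 arrays is followed by that over 38. Ptprz1 was nearest to Olig1, a transcription factor of oligodendrocyte lineage cells (0.96 and 0.93), then to Lhfpl3 (0.95 and 0.85) and Sema3d (0.95 and 0.78). Ncan was nearest to Ptprz1, Lhfpl3 (0.92 and 0.81) and Scrg1 (0.90 and 0.73). Tnr was nearest to Sema3d (0.93 and 0.78), Gpr17 and Chadl (0.92 and 0.81). Bcan was nearest to Tnr, Igsf9b (0.90 and 0.81) and Pllp, the myelin gene for plasmolipin (0.89 and 0.81). Gpr17 was nearest to the kinase gene Prkcq (0.95 and 0.85), Gal3st1, the sulfatide-making sulfotransferase (0.93 and 0.76), and Tnr.

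Megf11 was the nearest gene to both Pcdh15 (0.94 and 0.92) and Cspg5 (0.93 and 0.90). Pcdh15 was followed by the transcription factor gene Nfia (0.93 and 0.87) and Brinp3 (0.93 and 0.90), and Cspg5 by Bmper (0.90 and 0.92), which encodes a BMP-binding protein, and the Wnt receptor gene Fzd9 (0.90 and 0.92). The genes nearest to St6gal2 were less close: Bcl7a, of the BAF chromatin remodelling complex (0.81 and 0.63), Khdrbs2, an RNA-binding protein gene (0.80 and 0.68), and Mapt, which encodes the microtubule protein tau (0.77 and 0.51).

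Genes that build, bind or cut this matrix were read in the same comparison with EGFRvIII, from lists chosen with earlier results known, and their counts stand against the 3.55% of all genes that rose and the 5.35% that fell. Of 16 other progenitor genes tested 2 rose in the mutants and none fell: Dcc, the netrin receptor, by 1.78 ± 0.40 (adjusted p = 0.00545) and Lims2, a focal adhesion adaptor, by 1.76 ± 0.55 (adjusted p = 0.0379). The list's median difference was 0.65, with 12 of 16 positive. Of 11 partners and ligands of the 8 genes 1 rose, the adhesion molecule neurofascin (Nfasc, 1.13 ± 0.37, adjusted p = 0.0452), with a median of 0.17. At 1 of 11, with 8.90% of all genes called in either direction, that count is near the background. Nfasc lost its call in 16 of 44 fits that left out 1 array and in 6 of 16 other settings, Lims2 in 6 and 5, and Dcc in none and 3.

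Enzymes of chondroitin sulfate synthesis were lower where they differed. Of 16 tested 4 fell and none rose, where 5.35% of all genes fell, with a median of -0.21. Dse, a dermatan sulfate epimerase, fell by 0.96 on the log2 scale (± 0.26, adjusted p = 0.0174), and Chst14, the dermatan 4-sulfotransferase, by 0.77 (± 0.22, adjusted p = 0.0231). Chsy1, a chain-extending synthase, fell by 0.75 (± 0.19, adjusted p = 0.0124) and B4galt7, which adds the first galactose of the linker to the core protein, by 0.48 (± 0.11, adjusted p = 0.0093). Of 15 sialyltransferases other than St6gal2, 2 fell and none rose, with a median of -0.04: St3gal1 by 0.68 (± 0.20, adjusted p = 0.0261) and St8sia1, the GD3 synthase, by 0.61 (± 0.20, adjusted p = 0.0497). St8sia1 lost its call in 27 of the 44 fits, while St3gal1, Chst14, Chsy1, Dse and B4galt7 lost theirs in 1 to 3, each time without EGFRvIII replicate 4, 5 or 6. In other settings the call was lost in 11 of 15 for St8sia1, 6 of 14 for St3gal1, 5 of 16 each for Chst14, Chsy1 and Dse, and 3 of 16 for B4galt7.

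The list of proteases that cut lecticans or NG2 had 11 genes tested, among them the protease inhibitor gene Timp3. Of these 2 fell and none rose, with a median of -0.34. Mmp14, the membrane-type collagenase, fell 2.62-fold (log2 difference -1.39 ± 0.26, adjusted p = 0.00112), and Adam10, a sheddase, 1.45-fold (-0.54 ± 0.13, adjusted p = 0.00892), which missed the threshold without EGFRvIII replicate 5 or 6. None of 9 other genes of the hyaluronan and lectican matrix passed. Those with the smallest p were Tnc, for tenascin-C, at -1.32 ± 0.51 (adjusted p = 0.0895; 0.0175 without EGFRvIII replicate 1) and Matn2, for matrilin-2, at -0.89 ± 0.41 (adjusted p = 0.152). Without EGFRvIII replicates 4, 5 and 6, where 0.457% of all genes passed, none of these 13 named genes did, and all 13 kept their direction, with Mmp14 at -0.86, St8sia1 at -0.67, B4galt7 at -0.30 and Dcc at 0.79. Within the EGFRvIII group those 3 arrays had the highest fibroblast and mesenchymal and the highest microglia and macrophage marker means, and the part of these cells was not tested.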

How the data were processed

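RNA of mouse tumours in 8 genotype groups was measured on 45 arrays. The authors made the deposited log2 signals with RMA, per the submitters' processing notes, from 100 ng of total RNA labelled with biotin, per the labels' protocols; its version and settings were not given in the sources used here. The table held 45141 probe sets, with array medians from 4.66 to 4.85, and was used as deposited. The number of arrays limits the precision.

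Probe sets with 1 gene symbol in the platform annotation (28898) were kept, 551 with several and 15692 with none were not. Each of 17097 genes took the probe set with the highest mean, and 11809 genes above the table median in at least 3 arrays were tested by lmFit and eBayes of limma 3.58.1 (R 4.3.3), with 8 group means and no covariate. The mutants' unweighted mean was set against EGFRvIII, the 6 mutants were compared by a moderated F test, and title ranges within V544ins and E10 del.v2. P-values were Benjamini-Hochberg adjusted over all genes tested, and the procedure was tested on simulated data. Named genes were the members and the 3 genes most correlated with each, passing over predicted and clone genes. From each list they were the called genes (at most 4 by p) or else the 2 with the smallest p. The members and lists were chosen with earlier results of these data known. Alternatives changed the filter, the probe set, the scaling, the prior, array weights, a host brain covariate (neuron and myelinating oligodendrocyte marker mean), the title range and the arrays included. The covariate's name is only a label, because its 2 lists can diverge. V544ins replicates 4 and 5 had neuron means of 5.32 and 4.52 but myelinating oligodendrocyte means of 10.18 and 10.09. Fits with it are therefore not a correction for normal brain alone. Leaving out V544ins replicates 4 and 5 was added after seeing the data. Replicates were numbered in accession order. Promoters and positions are RefSeq's for GRCm38.p6.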

Additional observations from a re-analysis of the deposited data

Results flagged for a closer look

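In 10 of the 48 groups of 4 to 10 arrays tested, 1 array lay apart from the rest by Dixon's criterion; chance marks about 1 in 20 groups, and the groups share arrays. E10 del.v2 replicate 2 was the array in 7 of the 10, the lowest of 9 for every measured gene but St6gal2. It was at 8.04 for Bcan (the other 8 from 9.65 to 11.14), 9.39 for Ncan (11.29 to 11.90) and 8.59 for Tnr (11.29 to 12.06). Ptprz1 was at 9.49 in it (12.29 to 12.70), Gpr17 at 6.98 (11.62 to 12.41), Pcdh15 at 5.41 (9.30 to 10.41) and Cspg5 at 9.04 (10.89 to 11.59). The same array had the highest neuron marker mean of its group, 11.43, and the lowest fibroblast and mesenchymal mean, 4.54.

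D842V replicate 1 was the lowest of 5 arrays for Bcan, at 9.02 (the other 4 from 10.02 to 10.30), and for Gpr17, at 9.53 (11.03 to 11.17), with a neuron marker mean of 10.67. C450 ins replicate 1 was the lowest of 5 for Gpr17, at 9.50 (11.31 to 11.78), with a neuron marker mean of 10.70. The part of neuronal RNA in these levels was not tested.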

How the results depend on the processing

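No paired analysis was possible because replicate numbers were given in accession order and pair no arrays. Of 11809 genes, 1051 passed in the mutants against EGFRvIII, 566 with the host brain covariate, 310 with a block for title range, 80 within the upper range, 54 without EGFRvIII replicates 4, 5 and 6, 2 with both restrictions, and 185 (without EGFRvIII replicate 5) to 2239 (without EGFRvIII replicate 1) when 1 array was left out. Among the mutants 68 passed, 264 with the host brain covariate, 14 with the block, 0 within the upper range (1262 at an unadjusted p under 0.05 by limma) and 223 within the lower. There 301 passed over only the arrays compared, 36 without replicates 1 to 3 of E10 del and 2 of E10 del.v2, and 200 without V544ins replicates 4 and 5. With 1 array left out 4 (without D842V replicate 3) to 141 (without E10 del.v2 replicate 2) passed among the mutants. Array weights, which spanned 0.17 to 9.94, gave 10855 among the mutants and called 7 of the 8 members. Between title ranges 646 passed, 5308 with array weights, 0 with the covariate (1968 at an unadjusted p under 0.05) and 42 (without E10 del.v2 replicate 1) to 3617 (without E10 del.v2 replicate 2) with 1 array left out; for the interaction 4, 3755, 0 (724) and 1 to 1139, lowest without V544ins replicate 1 and highest without E10 del.v2 replicate 2.

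St6gal2 against EGFRvIII kept its direction in every setting and lost its call within the upper range and without EGFRvIII replicates 4, 5 and 6 (there with both ranges, 1.54, and with the upper alone, 1.59, adjusted p = 0.626). Without those 3 arrays the others were Bcan -0.033, Ncan -0.19, Tnr -0.091, Ptprz1 -0.42, Gpr17 -0.25, Pcdh15 -0.87 and Cspg5 -0.79, and also within the upper range Ptprz1 -0.24, Pcdh15 -0.44 and Cspg5 -0.41, but Bcan 0.35, Tnr 0.33, Gpr17 0.11 and Ncan 0.03, with Matn2 at 0.041. Array weights turned Ptprz1 (-0.0055), Pcdh15 (-0.16) and Cspg5 (-0.24), and leaving out 1 array took Cspg5 from -0.11 to 0.56. Without replicates 1 to 3 of E10 del and 2 of E10 del.v2, Bcan (1.56, adjusted p = 0.039), Tnr (1.63, adjusted p = 0.0278) and Gpr17 (2.07, adjusted p = 0.0267) passed, in a fit that called 763 genes. These 4 arrays were named in advance and were low in these genes, so leaving them out raises the mutants' mean. The passes follow in part from that choice and are no separate support. Between title ranges, array weights turned Pcdh15 (0.62), Cspg5 (0.44) and St6gal2 (0.18) and called the other 5 members, also for the interaction. The host brain covariate turned Tnr (-0.14), Ptprz1 (-0.44), Gpr17 (-0.74), Cspg5 (0.069) and St6gal2 (0.65). With 1 array left out, Pcdh15 ran from -0.31 to 0.19, Cspg5 from -0.28 to 0.11 and St6gal2 from -0.35 to 0.025. The cause of these changes was not tested.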
